A study of Mus musculus with 16 samples.

Results

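The hyaluronan system and lubricin are described here through 10 genes listed by role: the synthases Has1, Has2 and Has3, the receptor Cd44, the cross-linkers Tnfaip6 and Vcan, the breakdown genes Hyal1, Hyal2 and Cemip, and Prg4, which encodes lubricin. A gene was taken from the array row whose annotation gave its symbol alone. That rule found 8 of the 10, and 9 after an older name, 9930013L23Rik, on the row of Cemip was updated to the current one. The row of Hyal1 also names Hyal3 and Nat6, so no value is given for it. Of the 30656 genes with such a row in the whole table, 18666 lay above the median of all rows on at least 4 of 16 arrays and were tested, among them 8 of the 10. Has3 was measured but lay above that median on 0 arrays and was not tested.

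The samples were atria of male C57BL/6 mice aged 10 weeks with no engineered allele named in the labels. In 3 groups the left anterior descending artery had been tied to cause myocardial infarction, and the atria were taken on day 1, 3 or 7, while the control group had sham surgery. Each group has 4 arrays, numbered 1 to 4 for sham, 11 to 14 on day 1, 31 to 34 for day 3, and 71 to 74 in the last group. The sources used here give neither the time between sham surgery and tissue collection nor whether each array holds RNA of 1 mouse, so p-values measure the spread between these arrays.

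Hyaluronan is a long unbranched sugar polymer of the extracellular matrix, spun directly out of the cell by membrane-bound synthases from UDP-glucuronic acid and UDP-N-acetylglucosamine. Cells bind it through CD44, and proteins such as versican and TSG-6, the product of Tnfaip6, organise it into cross-linked coats and cables to which leukocytes adhere. Hyaluronidases and CEMIP cut it into fragments, some of which are sensed by innate immune receptors. Lubricin is a heavily glycosylated, secreted mucin-like protein best known as the boundary lubricant of joints, where it acts together with hyaluronan. It is also made by cells of serous linings such as the pericardium.

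The 4 stretches of promoter sequence below are shown because 3 of these genes rose on every infarction day. The other gene, the synthase Has1, was not called against sham in the fit of all arrays without array weights. Each holds the 250 bases before the gene's start, 5′ to 3′ on the strand of the gene, as RefSeq gives it for the mouse assembly GRCm38.p6. Capitals mark matches, on either strand, to letter patterns of inducible factors and the TATA box.
Tnfaip6, chr2:52037863-52038112, plus strand: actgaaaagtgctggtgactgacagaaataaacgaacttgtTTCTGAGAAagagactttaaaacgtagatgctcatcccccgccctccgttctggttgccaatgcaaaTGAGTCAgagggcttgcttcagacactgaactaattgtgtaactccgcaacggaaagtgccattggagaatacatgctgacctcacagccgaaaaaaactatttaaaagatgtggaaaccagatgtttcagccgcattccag
Cd44, chr2:102901666-102901915, minus strand: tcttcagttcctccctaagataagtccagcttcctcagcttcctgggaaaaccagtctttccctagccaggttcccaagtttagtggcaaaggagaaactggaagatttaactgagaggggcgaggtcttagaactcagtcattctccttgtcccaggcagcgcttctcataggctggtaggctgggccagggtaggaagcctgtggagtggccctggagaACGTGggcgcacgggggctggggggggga
Vcan, chr13:89742513-89742762, minus strand: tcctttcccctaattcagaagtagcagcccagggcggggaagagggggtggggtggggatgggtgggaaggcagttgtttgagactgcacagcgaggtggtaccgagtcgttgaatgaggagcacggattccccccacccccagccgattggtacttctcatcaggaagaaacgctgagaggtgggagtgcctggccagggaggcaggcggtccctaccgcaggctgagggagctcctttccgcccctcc
Has1, chr17:17855189-17855438, minus strand: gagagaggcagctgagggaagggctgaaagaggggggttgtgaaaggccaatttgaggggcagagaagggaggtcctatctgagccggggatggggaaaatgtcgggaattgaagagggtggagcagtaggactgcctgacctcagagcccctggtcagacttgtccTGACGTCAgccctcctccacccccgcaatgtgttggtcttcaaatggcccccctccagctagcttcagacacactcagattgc
The patterns searched were AP-1 (TGANTCA), CRE (TGACGTCA), NF-kB (GGNNNTTCC), C/EBP (TTGCNNAA), STAT (TTCNNNGAA), HIF (ACGTG) and the TATA box (TATAAA), and no matches shown overlap one another. The stretch of Tnfaip6 holds an AP-1 match that begins 142 bases before the start and a STAT match at 209 bases. Of all 32851 promoters of this length in the table, 6.75% hold the AP-1 pattern and 7.02% the STAT pattern. The stretch of Cd44 holds 1 HIF match at 29 bases, a pattern found in 16.6% of promoters, and that of Has1 a full CRE at 83 bases, found in 1.55%. Cemip and Hyal2, whose stretches are not printed, hold a TATA match at 29 bases (12.4% of promoters) and an NF-kB match at 237 bases (15.7%). In the stretch of Vcan none of the 7 patterns occurs, and the C/EBP pattern, in 9.56% of promoters, occurs in none of the 6 stretches searched for tested genes. A match is a description of the letters and not a measured binding site. Has2, Has3 and Prg4 have no entry in the table.

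All values below are the deposited log2 signals, and every difference is a log2 difference of group means with the SE of a limma fit over all 16 arrays, at n = 4 per group. "Called" means an adjusted p under 0.05 by limma with Benjamini-Hochberg adjustment over all tested genes. Levels of different genes are not compared, because each row has probes of its own. A set of negative control rows gives the background of each array. The medians of those rows were 4.44 to 4.60 in the sham, day 7 and most day 3 arrays, 4.69 to 4.87 on day 1 and 4.93 in day 3 array 31. Positive and negative control rows were also less well separated in day 3 array 31 (area under the receiver operating curve 0.743) and day 1 array 13 (0.755) than in the other 14 arrays (0.793 to 0.825). The median correlation of array 31 with its group was 0.955, against 0.987 or more for the others. Where leaving out array 31 changes the call of a member or moves a member's difference printed below by over 1.5 times, the value without it is given too. Fitted differences of marker and pathway genes are given with all arrays only. All 11 listed atrial cardiomyocyte markers were annotated and none lay at background on all arrays, with Myl7 and Sln both at a sham mean of 17.97. Bmp10, however, exceeded its negative control median on only 1 of 16 arrays and was not tested. The same sham arrays serve all 3 comparisons with sham, so these are not independent of one another.

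On day 1, 4 of the 8 tested members were called higher than sham, Cd44, Tnfaip6, Vcan and Prg4, and 0 lower. Among all tested genes 24.8% were called higher and 22.1% lower on that day. Day 3 gave the same 4 members higher and 0 lower, beside 23.3% and 20.0% of all tested genes. By day 7 Cd44, Tnfaip6, Vcan and Cemip were called higher and 0 members lower, beside 14.7% and 9.90%. At an unadjusted p under 0.05, the members lower than sham were also 0 on each day. All 4 infarction values lay above all 4 sham values for 4 members on day 1, 5 on day 3 and 4 on day 7, where 30.7%, 22.1% and 19.8% of all tested genes did so. The median difference over the 8 members was 1.09, 0.86 and 0.73 on days 1, 3 and 7, against 0.065, 0.081 and -0.008 over all tested genes. In the F test for any infarction day 5 of 8 members were called, beside 52.0% of all tested genes. Cemip passed the filter on low values through its 4 day 7 arrays alone, so its place in these counts follows in part from the filter and supports nothing. Without array 31, 6 members were called higher than sham on day 1, Has1 and Has2 among them, beside 35.5% of all tested genes, and 26.8% were lower. The members called on days 3 and 7 stayed as named, beside 26.5% higher and 18.2% lower on day 3 and 19.3% and 15.9% on day 7.

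**Figure D1:**
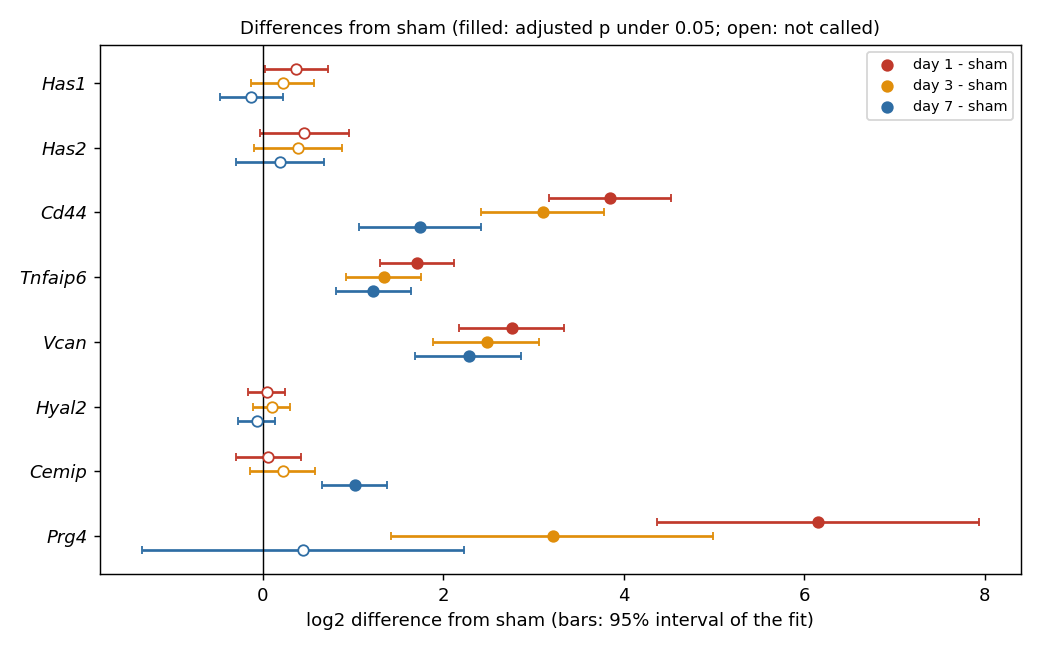
Log2 difference from sham (horizontal axis) for the 8 tested members on day 1, day 3 and day 7, with bars for the 95% interval of the fit. Filled points were called and open points were not; Cd44, Tnfaip6 and Vcan are filled on all 3 days, and Prg4 goes from 6.15 on day 1 to 0.45 on day 7.

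Has1, Has2 and Has3 encode the 3 membrane synthases of mammals, of which Has2 is the one needed for heart development. In the fit of all 16 arrays without array weights none of them was called against sham on any day. Has2 read 6.85, 6.17, 6.20 and 6.02 in sham 1 to 4. The day 1 arrays read 6.61, 6.34, 7.14 and 7.01, and the day 3 arrays 7.28, 6.37, 6.45 and 6.69. On day 7 the values were 6.43, 6.43, 6.75 and 6.38. Sham 1 lay above all day 7 values and above 5 of the 8 values of the earlier days, so every infarction group overlapped with sham. The difference from sham was 0.46 ± 0.23 on day 1 (95% interval -0.03 to 0.95, limma adjusted p = 0.106), 0.39 on day 3 (-0.10 to 0.88, adjusted p = 0.188) and 0.19 on day 7 (-0.30 to 0.68, adjusted p = 0.644). A day 1 rise of nearly 1 log2 unit is thus inside the interval. The day 1 call turns on single arrays: without sham 1 the difference was 0.64 (adjusted p = 0.0326), without day 1 array 12 it was 0.61 (0.0459), without day 3 array 31 it was 0.46 (0.0487), and with array weights it was 0.45 (0.0224). On day 3 array 31 carried much of the difference, which was 0.19 without it (adjusted p = 0.51). Leaving out single arrays gave 0.09 to 0.37 on day 7, with no call.

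Has1 lay close to background. Sham 1 to 4 read 5.09, 4.86, 4.80 and 4.69, and day 1 arrays 5.10, 5.01, 5.70 and 5.10. Day 3 arrays read 5.42, 4.92, 4.89 and 5.08, and day 7 arrays 4.86, 4.66, 4.95 and 4.46. Day 1 array 13 and day 3 array 31, the arrays with the highest negative controls, had the highest values of their groups, and day 7 array 74 lay below its negative control median. The difference from sham was 0.37 ± 0.16 on day 1 (95% interval 0.02 to 0.72, adjusted p = 0.0736), 0.22 on day 3 (adjusted p = 0.291) and -0.13 on day 7 (adjusted p = 0.669). The day 1 difference was called with array weights (0.28, adjusted p = 0.0301), without day 1 array 12 (0.44, adjusted p = 0.05 after rounding) and without day 3 array 31 (0.37, 0.0401), and it was 0.21 (0.248) without day 1 array 13. Without array 31 the day 3 difference was 0.10 (0.655). Between infarction days, Has1 was lower on day 7 than on day 1 by a called difference of -0.50 ± 0.16 (adjusted p = 0.0378), with all 4 day 7 values below all 4 day 1 values. The mean negative control median moved the same way, from 4.75 to 4.51, and its part in the result was not tested. With each array centred on its median the difference was -0.31 (adjusted p = 0.074), after quantile normalisation it was -0.33 (0.0734), with no filter it was -0.50 (0.0507), and the call was also lost when any of day 1 arrays 13 and 14 or day 7 arrays 71, 72 and 74 was left out (-0.34 to -0.54, adjusted p 0.052 to 0.117). Has3 read 3.71 to 4.02 over the 16 arrays, below the negative control median on every one, so no difference can be read from it.

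**Figure D2:**
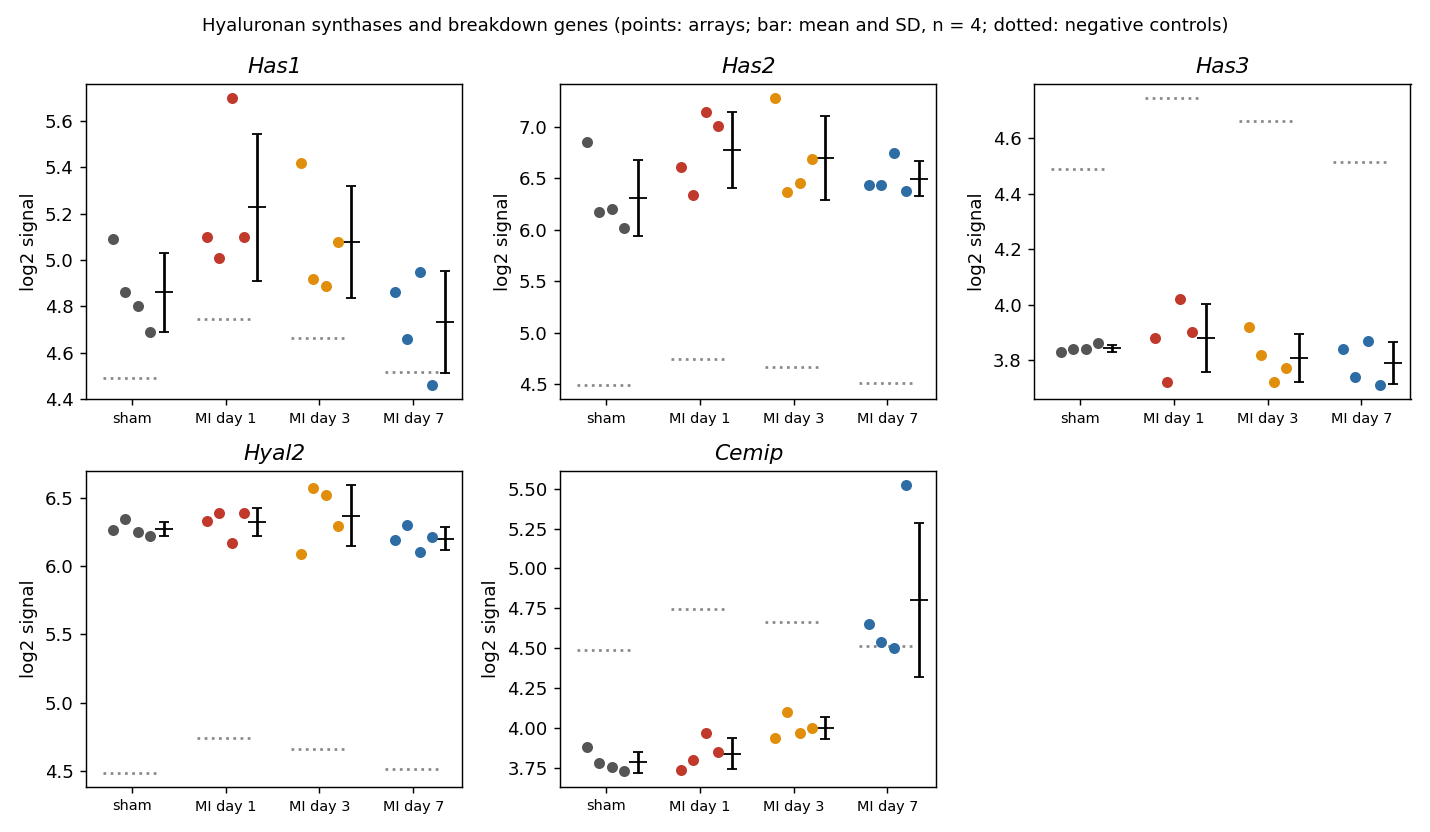
Log2 signal (vertical axes, a scale of its own for each gene) of the synthases Has1, Has2 and Has3 and the breakdown genes Hyal2 and Cemip in each array, with mean and SD (n = 4) and the mean negative control median of each group as a dotted line. Has3 lies under the dotted line throughout, Cemip reaches it only on day 7, and the groups of Has2 and Hyal2 overlap.

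CD44 is the main cell surface receptor for hyaluronan, found on leukocytes, fibroblasts and many other cells and linked to the cytoskeleton through ezrin, radixin and moesin. Cd44 was higher than sham on all 3 days, and lower on day 7 than on day 1 or day 3. Sham 1 to 4 read 6.07, 5.91, 5.44 and 5.41. The day 1 arrays read 9.74, 8.59, 10.67 and 9.22, the day 3 arrays 8.95, 8.83, 8.68 and 8.79, and the day 7 arrays 7.42, 7.60, 7.39 and 7.38. No infarction value came within 1 log2 unit of the sham values, and the day 7 values lay below every value of the earlier days, while day 1 and day 3 overlapped through array 12. The difference from sham was 3.85 ± 0.32 on day 1 (limma adjusted p = 1.14e-06), 3.10 ± 0.32 on day 3 (5.34e-06) and 1.74 ± 0.32 on day 7 (0.0012). From day 3 to day 7 Cd44 fell by 1.36 on the log2 scale (adjusted p = 0.0125), and the difference of day 7 from day 1 was -2.10 (adjusted p = 0.000298). The step from day 1 to day 3, -0.74, was not called (adjusted p = 0.192), but without day 1 array 12 it was -1.06 (adjusted p = 0.0313) and with array weights -0.72 (0.0168). The spread between arrays differed too, with an SD of 0.88 on day 1 against 0.11 on day 3 and 0.10 on day 7. In whole tissue, more cells carrying a transcript and more transcript per cell cannot be told apart, which holds for every difference given here.

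TSG-6 is a secreted protein induced by inflammatory cytokines that transfers heavy chains of inter-alpha-inhibitor onto hyaluronan and so cross-links it. Tnfaip6 read 6.13, 6.44, 5.79 and 6.20 in sham 1 to 4 and 7.93, 7.30, 8.23 and 7.95 on day 1. Day 3 arrays read 7.66, 7.17, 7.56 and 7.51, and day 7 arrays 7.10, 7.67, 7.34 and 7.33. All 12 infarction values exceeded all sham values, and the 3 infarction groups overlapped one another. The rise over sham was 1.71 ± 0.19 on day 1 (adjusted p = 1.54e-05), 1.34 ± 0.19 on day 3 (8.53e-05) and 1.22 ± 0.19 on day 7 (0.000442). Between day 1 and day 7 the difference was -0.49 (95% interval -0.90 to -0.08, adjusted p = 0.072). That comparison was called without day 1 array 12 (-0.67, adjusted p = 0.0117), without day 3 array 31 (-0.49, 0.0462) and with array weights (-0.46, 0.043).

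Versican is the large chondroitin sulfate proteoglycan whose amino-terminal domain binds hyaluronan, a part of the provisional matrix of injured tissue. Vcan read 8.21, 7.76, 7.19 and 7.40 in sham 1 to 4 and 10.24, 9.98, 11.22 and 10.14 on day 1. On day 3 the arrays read 9.84, 10.23, 10.05 and 10.34, and on day 7 10.16, 10.20, 9.69 and 9.60. Every infarction value lay more than 1 log2 unit above the highest sham value, sham 1, and the 3 infarction groups overlapped. The rise over sham was 2.76 ± 0.27 on day 1 (adjusted p = 5.46e-06), 2.48 ± 0.27 on day 3 (9.93e-06) and 2.28 ± 0.27 on day 7 (5.63e-05). Vcan on day 7 differed from day 1 by -0.48 (95% interval -1.07 to 0.11, adjusted p = 0.184), which was not called. Of these 3 genes only Cd44 was called lower on day 7 than on an earlier day, and whether its change differed from that of Vcan or Tnfaip6 was not tested.

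**Figure D3:**
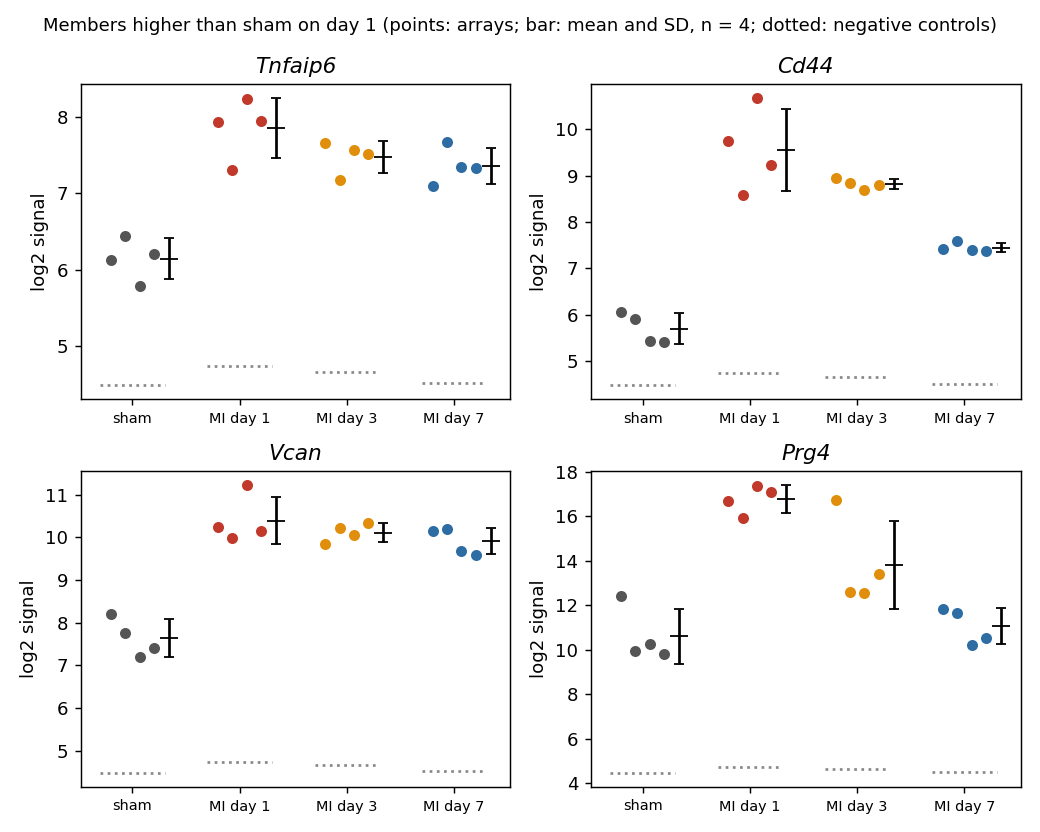
Log2 signal (vertical axes, a scale of its own for each gene) of Tnfaip6, Cd44, Vcan and Prg4 in each array, with mean and SD (n = 4) and the mean negative control median of each group as a dotted line. The first 3 stay above sham on day 7, while the day 7 values of Prg4, 10.21 to 11.83, lie within the sham range and day 3 array 31 stands at 16.72 among values of 12.54 to 13.42.

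HYAL2 is an anchored hyaluronidase that cuts long hyaluronan at the cell surface, and CEMIP binds hyaluronan and is needed for its cleavage in fibroblasts. Hyal2 read 6.22 to 6.34 in the sham arrays, 6.17 to 6.39 on day 1, 6.09 to 6.57 on day 3 and 6.10 to 6.30 on day 7, with all groups overlapping. Its differences from sham were 0.05, 0.10 and -0.07, each with an SE of 0.10, and none was called (adjusted p = 0.686, 0.419 and 0.701). Their 95% intervals lay between -0.27 and 0.30, which bounds their size on this scale. The signs are not settled: under all alternatives tried the day 1 value ran from -0.16 to 0.10 and the day 3 value from -0.08 to 0.19. Day 3 array 31 was the lowest of its group at 6.09, and without it day 7 was called lower than day 3 (-0.26, adjusted p = 0.038). The day 3 difference from sham without array 31 was 0.19 (adjusted p = 0.0622), not called. Day 3 was called above sham with array weights (0.16, 0.0494) and without both array 31 and day 1 array 13 (0.19, 0.0377).

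Cemip read 3.73 to 3.88 in sham, 3.74 to 3.97 on day 1 and 3.94 to 4.10 on day 3, all below the negative controls. On day 7 the arrays read 4.65, 4.54, 4.50 and 5.52. Of these 71, 73 and 74 lay above their own negative control medians, and array 74 stood apart from the rest. The fitted differences of day 7 were 1.02 from sham, 0.80 from day 3 and 0.96 from day 1. Since Cemip entered the fit only through its high group, no p-value is given for it, and its calls in the counts of members are no evidence of a change. Set against the negative control medians instead of signals at background, the differences are at least 0.31, 0.14 and 0.06. These bounds rest on array 74. The other 3 day 7 arrays averaged 4.56, which is 0.07 above the negative control median of sham and -0.10 and -0.18 from those of day 3 and day 1, so without array 74 only a bound of 0.07 over sham is left.

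Prg4 rose on day 1 by a larger log2 difference than any other member and was not called against sham on day 7. Sham 1 to 4 read 12.42, 9.93, 10.28 and 9.81. The day 1 arrays read 16.70, 15.91, 17.36 and 17.08. Day 3 arrays 31 to 34 read 16.72, 12.59, 12.54 and 13.42, and the day 7 arrays 11.83, 11.66, 10.21 and 10.54. Every day 1 value exceeded every sham value by more than 3 log2 units, all below the ceiling of the table at 19.93. The day 3 values also lay above all sham values, though array 32 and array 33 only just exceeded sham 1, and the day 7 values overlapped with sham. Array 31 had a value like those of day 1.

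The difference of Prg4 from sham was 6.15 ± 0.83 on day 1 (limma adjusted p = 6.55e-05) and 3.21 ± 0.83 on day 3 (adjusted p = 0.00628). On day 7 it was 0.45 ± 0.83 (95% interval -1.34 to 2.23, adjusted p = 0.798), which leaves room for a difference of either sign. Day 7 was lower than day 1 by a difference of -5.70 ± 0.83 (adjusted p = 0.000233). Without array 31 the day 3 mean was 12.85 ± 0.49 (SD, n = 3), the difference from sham 2.24 ± 0.59 (adjusted p = 0.0068) and the difference of day 3 from day 1 was -3.91 (adjusted p = 0.000348). Without sham 1 the differences from sham were 6.75, 3.81 and 1.05 on days 1, 3 and 7. With all arrays day 3 was below day 1 by -2.95 (adjusted p = 0.0433) and day 7 below day 3 by -2.76 (adjusted p = 0.0434), and these 2 calls are fragile. Each was lost in 15 of 27 alternatives, with adjusted p from 6.85e-05 to 0.18 for the first and 0.0184 to 0.143 for the second. The first held when sham 1, day 3 array 31 or day 7 array 73 was left out and was lost without any of the other 13 arrays. The second was lost without sham 2, 3 or 4, day 1 array 11 or 14, day 3 array 31 or 34, or any of the 4 day 7 arrays, and without array 31 it was -1.79 (adjusted p = 0.0569).

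Listed cell type markers moved beside Prg4. Of 12 neutrophil markers 10 were tested, and Camp and Ngp were at background on all arrays. Among those tested, 9 were called higher on day 1, 9 on day 3 and 0 on day 7, where 0 also had an unadjusted p under 0.05. The exception on days 1 and 3 was Ly6g, at 0.36 (adjusted p = 0.104) and -0.22 (adjusted p = 0.338). The mean difference of the 10 tested markers from sham was 4.86 to 6.15 in the day 1 arrays and 5.31 in array 31. In the other day 3 arrays it was 1.59 to 1.80, and on day 7 0.09 to 0.27. Mmp8, Mmp9, Il1r2 and Retnlg were at background in all sham arrays, so their part in these means is no size. On day 1 they stood at least 4.25, 1.97, 7.29 and 8.37 above sham. Mmp8 and Mmp9 were also at background on day 7, so their place in the counts follows in part from the filter. S100a8, an alarmin of neutrophil granulocytes, was 8.21 ± 1.00 above sham on day 1 and 0.66 on day 7 (adjusted p = 0.734). Its sham mean of 4.24 lay below the mean negative control median of sham, 4.49, so these differences start from a signal near background. Of 14 mesothelial and epicardial markers 1 was called higher and 5 lower on day 1, beside 24.8% and 22.1% of all tested genes. Day 3 gave 1 higher and 2 lower, and day 7 2 higher and 0 lower (also 0 lower at an unadjusted p under 0.05). Their mean difference from sham was -0.96 to 0.30 in the day 1 arrays and -0.79 in array 31. In the other day 3 arrays it was 0.27 to 0.88, and on day 7 -0.04 to 0.39. Upk3b stood at -2.23 ± 0.48 and Aldh1a2 at 2.75 ± 0.27 on day 1. Of 10 cartilage and tendon markers 4 were tested and 5 were at background on all arrays, Col9a1, Col11a2, Matn1, Matn3 and Chad. None of those tested was called on day 1 or had an unadjusted p under 0.05, while Sox9 was called higher on days 3 and 7 and Comp on day 7. The part of these cell types in the values of Prg4 was not tested.

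**Figure D4:**
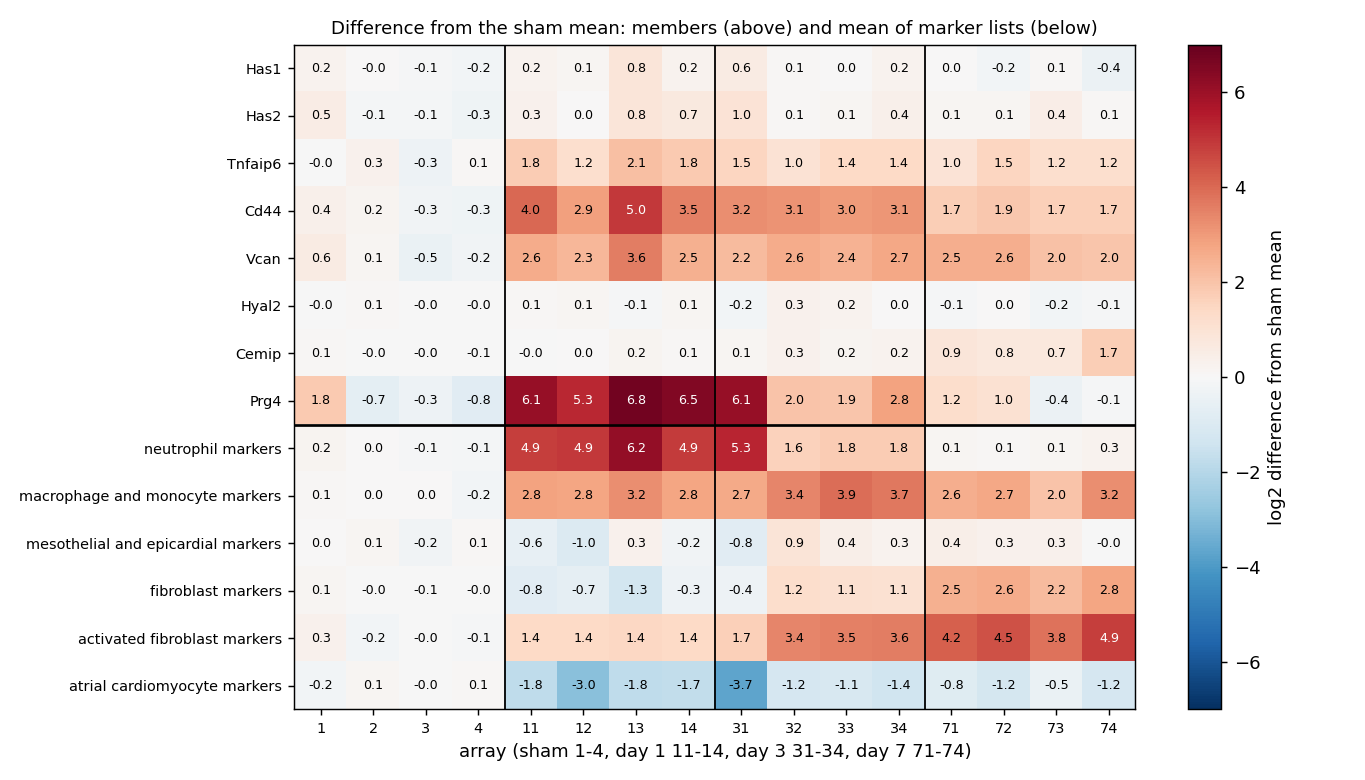
Difference of each array from the sham mean, in log2 units by colour and number, for the 8 tested members (above the line) and the mean of the tested genes of 6 marker lists (below it). Day 3 array 31 resembles the day 1 arrays in Prg4 and in the neutrophil and fibroblast markers, and the Cemip values above 0.5 are all in day 7 arrays.

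The other marker lists changed beside the remaining members. Of 14 macrophage and monocyte markers 10, 13 and 10 were called higher on days 1, 3 and 7, with a mean difference of 2.76 to 3.23, 2.66 to 3.90 and 1.98 to 3.25. Of 8 activated fibroblast markers 2, 6 and 7 were called higher, with a mean difference of 1.40 to 1.45 on day 1, 1.68 to 3.59 on day 3 and 3.79 to 4.86 on day 7. Fn1, fibronectin, stood 4.91, 6.09 and 7.18 above sham, and Postn, periostin, 1.33 (adjusted p = 0.114), 4.33 and 6.87. Of 11 tested fibroblast markers 0, 3 and 8 were called higher (on day 1 also 0 at an unadjusted p under 0.05) and 7, 3 and 1 lower. Array 74, the highest for Cemip, was also the highest day 7 array on several lists. Its means were 4.86 for activated fibroblast, 2.75 for fibroblast and 3.25 for macrophage and monocyte markers. On other lists it was not the highest, as for mesothelial and epicardial markers (-0.04). Of 10 tested atrial cardiomyocyte markers 8, 8 and 1 were called lower. The part of these cell types in the differences of Cd44, Vcan, Tnfaip6 and Cemip was not tested.

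Genes with the most similar pattern were taken as those with the smallest mean absolute distance, over the 12 infarction arrays, between the differences from the gene's own sham mean. For Cd44 these were Itga5 (0.30 log2 units), the alpha chain of a fibronectin receptor, Msn (0.37), which encodes moesin, and Rtn4 (0.41). For Tnfaip6 they were Rnf149 and Alcam (both 0.20) and Hif1a (0.22), and for Vcan Tpm3-rs7 (0.34), Flna and Id2 (both 0.35). For Cemip the rule gave Ighm, Itga11 and Cercam, but Cemip and Itga11 lie at background in sham and on days 1 and 3, so no distance or rank is read from them. The pattern of Prg4 was nearest to those of Cxcl2 (0.54), Il1b (0.82) and Ppbp (0.82), an inflammatory chemokine, a cytokine and a platelet chemokine. Cxcl2 was at background in all 4 sham arrays and above it in 2 of 4 on day 7, so its distance rests in part on background signals. It stood at least 5.43 and 2.67 above sham on days 1 and 3, beside 6.15 and 3.21 for Prg4. These are descriptions over arrays that share their groups, with no test.

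Around the members, 96 genes on 8 pathway lists were examined, of which 65 were tested. Higher and lower calls numbered 31 and 6 on day 1, 39 and 6 on day 3, and 29 and 4 on day 7, against the shares of all tested genes given above.

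Precursor supply, the making of the UDP sugars, had 11 tested genes, with 6 higher and 1 lower on day 1, the same numbers on day 3, and 3 higher on day 7. Ugdh, which makes UDP-glucuronic acid, was 1.43 ± 0.22, 1.22 ± 0.22 and 1.06 ± 0.22 above sham, called on each day (adjusted p = 0.000208, 0.000573 and 0.00331). Pgm1, a phosphoglucomutase, differed by 1.56, 1.38 and 0.88, all called. Ugp2, which makes UDP-glucose, was lower on days 1 and 3 (-0.89 and -0.97) and at 0.08 on day 7 (adjusted p = 0.925). Has1 and Has2 were not called against sham in the fit of all arrays without array weights. As given above, both were called higher on day 1 under some alternatives, and Has3 was not tested. Among the 14 tested genes listed as inducers of the synthases, 8, 9 and 6 were called higher on days 1, 3 and 7, with 1 lower on each day. Il1b, a cytokine, was 5.90 ± 0.69 above sham on day 1, 3.83 on day 3 and 1.40 on day 7 (adjusted p = 0.163). Hbegf, a ligand of the EGF receptor, followed with 4.51, 1.95 and 0.76, and Ptgs2, the inducible cyclooxygenase, with 3.92, 2.27 and 1.12, the day 7 values not called. Tnf was at background on all arrays.

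Of 22 other hyaluronan-binding and cross-linking proteins 10 were tested and 13 lay at background on all arrays, including the 4 link proteins Hapln1 to Hapln4, aggrecan (Acan) and the scavenger receptor Stab2. Higher calls numbered 3, 4 and 4 on days 1, 3 and 7, and lower calls 1, 2 and 2. Hmmr, a hyaluronan receptor that also serves the mitotic spindle and was listed among cell division markers too, differed from sham by 0.27 on day 1 (adjusted p = 0.551), 3.32 ± 0.37 on day 3 and 2.63 ± 0.37 on day 7. All 4 tested cell division markers were called higher on days 3 and 7. Lyve1, the receptor of lymphatic vessels and some resident macrophages, was -0.61 on day 1 (adjusted p = 0.252), -2.32 on day 3 and -1.43 on day 7. Itih5, of the inter-alpha-inhibitor heavy chain family, was lower on day 1 (-0.98 ± 0.13, adjusted p = 6.32e-05) and higher on day 7 (1.87 ± 0.13, adjusted p = 1.24e-06).

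Of 5 genes listed for the sensing of hyaluronan fragments, receptors and the signalling adaptor Myd88, 4 were called higher on day 1, 4 on day 3 and 2 on day 7. Myd88 was called on days 1 and 3 (1.04 and 0.77) and not on day 7 (0.43, adjusted p = 0.0967). Ly96, at -0.57, -0.67 and 0.04, was not called on any day. Cd14, a co-receptor of TLR4, stood 1.89, 1.27 and 0.67 above sham, Tlr2 0.87, 0.77 and 1.14, all called, and Tlr4 1.28 and 0.88 on days 1 and 3 and 0.45 on day 7 (adjusted p = 0.0613). In the list of other breakdown and lysosomal genes, 5 of 11 were tested. None was called on day 1, with 1 higher at an unadjusted p under 0.05, and all 5 were called higher on days 3 and 7. Hexa, a subunit of lysosomal hexosaminidase, went from -0.52 on day 1 (adjusted p = 0.151) to 1.24 and 1.63. Gusb, the lysosomal glucuronidase, went from 0.26 (adjusted p = 0.385) to 1.23 and 1.09, and Mrc2, an endocytic collagen receptor, from -0.09 (adjusted p = 0.728) to 1.03 and 1.69. Hpse, heparanase, was at background in sham and on day 1 and at least 1.10 and 0.94 above sham on days 3 and 7. Cemip2, the transmembrane relative of Cemip, was 0.29 on day 1 (adjusted p = 0.121), 0.79 on day 3 and 0.66 on day 7.

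Proteases that cleave versican had 5 tested members, with 4 higher and 1 lower on day 1, 3 higher on day 3 and 2 on day 7. Adamts1 differed from sham by 3.53 ± 0.31 on day 1, 1.79 ± 0.31 on day 3 and 0.82 on day 7 (adjusted p = 0.0635), and Adamts9 by 1.50, 1.24 and 0.56, all called. Adamts8 was higher on days 1 and 7 (2.48 ± 0.63 and 2.65 ± 0.63) and at 1.09 on day 3 (adjusted p = 0.178). Adamts5 was the lower one on day 1, at -1.25 ± 0.36 (adjusted p = 0.0126). Of 9 tested CD44 ligands, partners and sheddases 4, 6 and 5 were called higher and 0 lower, with 1, 1 and 0 lower at an unadjusted p under 0.05. Msn, moesin, stood 3.36, 2.96 and 1.77 above sham, and Mmp14, a membrane protease that sheds CD44, 1.63, 3.02 and 3.72. Lgals9, galectin-9, differed by 1.15 on day 1 (adjusted p = 0.192), 2.04 on day 3 and 2.95 on day 7. The 6 tested genes listed around lubricin were partners, lubricin-cleaving proteases and the transcription factors Foxo1 and Foxo3. Of these 2 were called higher on each day, with 2, 2 and 1 lower. The lower calls were those of Foxo1 (-0.52 on day 1 and -0.39 on day 3) and Foxo3, not of a partner or protease. Ctss, cathepsin S, which is also on the macrophage list, was called higher on each day, at 6.12 ± 0.40 on day 3 and 6.20 ± 0.40 on day 7. Ctsb, cathepsin B, differed by 0.23 on day 1 (adjusted p = 0.555), 1.20 and 1.42, and Foxo3, a transcription factor, was lower on each day (-1.35, -1.33 and -0.82), while Ctsg and Elane, serine proteases of neutrophil granules, were at background on all arrays.

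**Figure D5:**
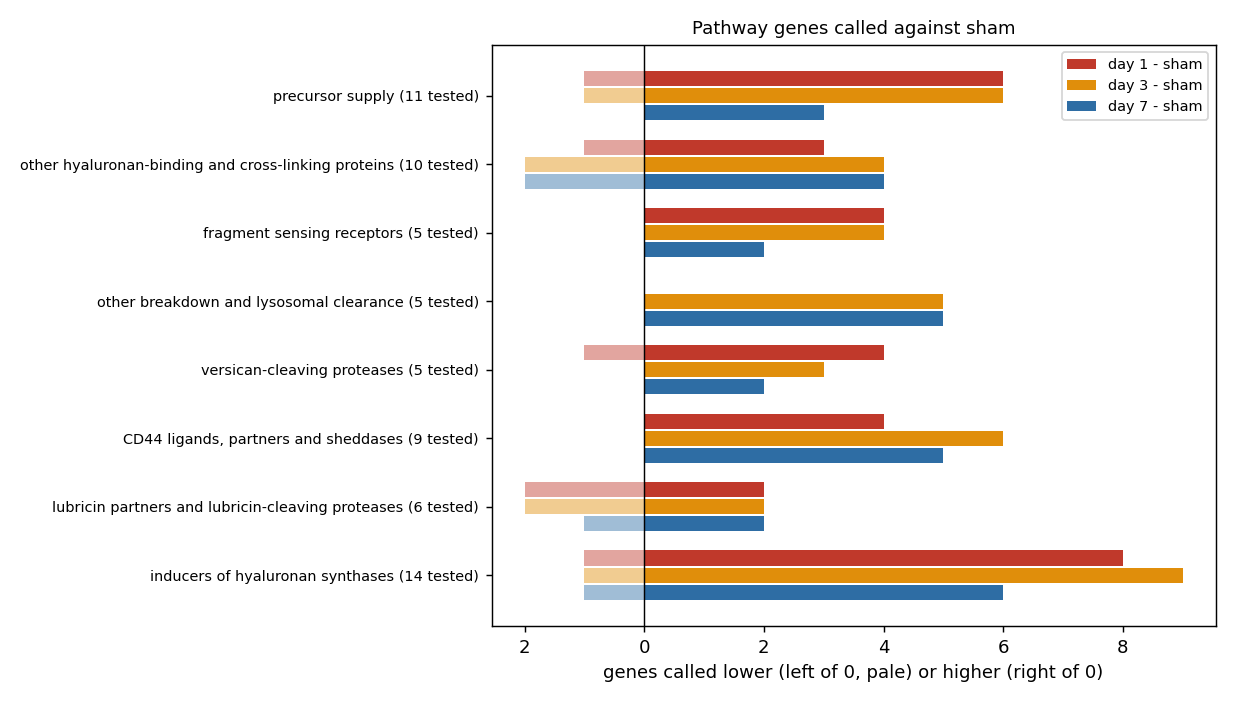
Number of genes called against sham (horizontal axis; higher to the right of 0, lower in pale colour to the left) on each of 8 pathway lists and each infarction day, with the number tested beside the list name. The breakdown and lysosomal list has 0, 5 and 5 higher calls on days 1, 3 and 7, and the inducers of the synthases 8, 9 and 6.

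Compared with each other, the infarction days differed in 1 to 4 of the 8 members. From day 1 to day 3, 0 members were called higher (also 0 at an unadjusted p under 0.05) and 1 lower, Prg4, beside 5.88% and 2.16% of all tested genes. Without array 31 those shares were 18.6% and 16.8%, and Prg4 was again the member called. From day 3 to day 7 Cemip was called higher and Cd44 and Prg4 lower, beside 4.03% and 8.49%. Without array 31 Cemip was called higher and Cd44 and Hyal2 lower, beside 3.51% and 12.0%. From day 1 to day 7 Cemip was called higher and Has1, Cd44 and Prg4 lower, beside 13.6% and 12.8%. Without array 31 Tnfaip6 was called lower too, beside 21.4% and 28.8%. Scaling of the arrays moves the background: of all genes called, the share that was higher than sham was 52.9% on day 1, 53.8% on day 3 and 59.8% on day 7, against 30.2%, 36.0% and 60.7% after quantile normalisation and 42.9%, 50.8% and 78.4% after median centring. Quantile normalisation also moved the median of all tested genes on day 1 from 0.065 to -0.147. For day 7 against day 1 that median went from -0.030 to 0.159, and the higher share of called genes from 51.5% to 74.7%, or 70.7% with centring. For day 7 against day 3 the share went from 32.2% to 59.4% and 42.4%. Under both scalings the calls of Cd44, Tnfaip6, Vcan and Prg4 against sham kept their sign and stayed called on the days named above.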

How the data were processed

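The deposited value table gives log2 signals made by the authors, 1 column per array and 72688 rows, with Affymetrix Expression Console named per the submitters' processing notes. The sources used here do not state background correction or scaling, so differences stay on the log2 scale. The labels name a mouse genome array of probe sets, but the rows are transcript clusters, so the array design is uncertain. Rows were named through a platform annotation: 30604 carried 1 symbol, 2146 several (604 of these became 1 after older names were updated), 33206 none, and 6732 were controls. Where a gene had several rows, the highest mean was used.

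For each gene, group means over the 16 arrays were estimated by limma 3.58.1 (lmFit, eBayes with trend; R 4.3.3), with Benjamini-Hochberg adjustment over 18666 genes within each comparison, after tests on simulated data. Where no array of a group exceeded its negative control median, the gene counts as at background in that group, and its difference is a bound. Members and lists were chosen with earlier results of these data known. All 10 members are described. Of each list, the 3 called genes with the largest difference from sham are named by rule, or 2 measured genes where none was called, leaving out marker lists that stand beside no member and, for marker lists, giving counts with few names. Other list genes, such as Adamts5, Cemip2, Gusb, Acan, Stab2 and the genes at background, were added after their values were seen. For each member called with a difference of at least 1, the 3 genes of nearest pattern are named. The shares of called genes without day 3 array 31 and the bounds of Cemip without day 7 array 74 were added after seeing the data. Alternatives covered scaling, filters, variance priors, row choice, array weights, the samples fitted and each array left out.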

Additional observations from a re-analysis of the deposited data

Results flagged for a closer look

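In 3 of 36 sets of 4 values (9 genes in 4 groups) 1 array stood apart from the others by more than Dixon's 95% critical value of 0.829 allows, where chance alone gives about 5% of such sets. Day 1 array 13 read 5.70 for Has1, day 7 array 73 read 6.75 for Has2, and day 7 array 74 read 5.52 for Cemip.

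Between infarction days, the limma test of the difference itself called Has1, Cd44 and Prg4, and the same test called Cemip. From day 1 to day 7 the difference was -0.50 for Has1, -2.10 for Cd44, 0.96 for Cemip and -5.70 for Prg4. From day 3 to day 7 it was -1.36 for Cd44, 0.80 for Cemip and -2.76 for Prg4, and from day 1 to day 3 it was -2.95 for Prg4. Has1 was not called against sham on any day in the fit of all arrays without array weights. Its call between days was lost in 8 of 27 alternatives. The calls of Prg4 from day 1 to day 3 and from day 3 to day 7 were each lost in 15 of 27. Cemip passed the filter on low values only through its day 7 arrays and lay at background on days 1 and 3, so its values are not sizes of a change and nothing is read from its test.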

How the results depend on the processing

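Each of 48 differences of single genes was recomputed under 27 alternatives where the gene could be fitted, 1284 values in all. Of these 1226 stayed on the same side of the threshold, 39 lost the call, 19 gained one, and 0 called differences turned sign. Differences not called in either fit count among the 1226 even where their sign changed, as for Hyal2 on day 1. The number of members called from day 1 to day 3 was 1 with all arrays and no array weights. It was 0 with no filter on low values, 0 when only the 2 groups compared were fitted and 2 with array weights (Cd44 and Prg4). Leaving out single arrays gave 0 to 1. From day 3 to day 7 it was 3, and 1 when only the 2 groups compared were fitted. The cause was not tested. The other counts of members called stayed within 1.5 times. Leaving out single arrays gave 4 to 6 on day 1, 4 to 5 on day 3 and 4 on day 7 against sham, 3 to 5 from day 1 to day 7, 2 to 3 from day 3 to day 7, and 5 to 7 in the test for any infarction day. An alternative chosen after seeing the data, rows with 1 symbol as annotated, leaves Cemip out, as does the stricter filter, and gave 3 members called on day 7. No paired analysis was possible because the labels give the groups no shared replicate numbers. The 4 arrays of a group limit precision, and signals near the negative controls, as for Has1, Has3 and Cemip, allow no size or only a bound.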
